A study of Mus musculus with 2 samples.

Results

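B-lineage cells made up 58 of 6662 filtered cells (0.871%) in a single-cell RNA sequencing study of mouse cochleae, with 35 cells in the library of implanted cochleae and 23 in the library of non-implanted cochleae. They were chosen by their own transcripts: a barcode had at least 200 detected genes and at most 10% mitochondrial UMIs (unique molecular identifiers, each a counted RNA molecule), at least 3 UMIs of Cd79a and Cd79b together, fewer than 5 UMIs of the macrophage genes C1qa, C1qb and C1qc, and fewer than 4 UMIs of the monocyte genes Ccr2 and F13a1. Levels of these genes therefore describe the choice and are not findings. Both libraries were made from pooled male and female mice of the strain labelled C57BL/6J/B6 with the genotype CX3CR1+/GFP Thy1+/YFP, a GFP reporter at a gene of microglia, macrophages and monocytes and a YFP reporter driven by a neuronal promoter. In the implanted group an electrode had been placed in the cochlea, and the series text gives 33 days between that operation and tissue collection. Cells of both groups were selected with magnetic beads against CD11b, a surface protein of myeloid cells, so a share of B-lineage cells here is a share after that selection. There was 1 library per group. The series text describes implanted and contralateral cochleae collected apart, while the second sample is labelled only as non-implanted. The extraction text in the sample labels names ages and a cochlear tissue, the stria vascularis, that do not match the series text, so the age and number of the animals behind each library are not known here. Whether the electrode released dexamethasone, which the series title mentions, is not stated for these samples.

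B lymphocytes develop in the bone marrow through stages that are read from their transcripts. Pro-B and pre-B cells express recombination enzymes and the surrogate light chain (Vpreb1 and Igll1), which pairs with a new heavy chain in the pre-B-cell receptor; the transcription factors EBF1 and PAX5 hold the lineage programme through most of B-cell life. Maturing cells replace the surrogate light chain with a kappa or lambda chain, gain MHC class II, and display IgM and IgD with the signalling pair CD79A and CD79B. Antibody-secreting plasma cells later switch off EBF1 and PAX5 and make large amounts of immunoglobulin and J chain.

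The deposited matrices held 3231 implanted and 3572 non-implanted barcodes with 19593003 and 21577033 UMIs, of which 3149 and 3513 passed the cell filter. The B-lineage cells held 163932 UMIs (implanted) and 118879 UMIs (non-implanted). Their lowest, median and highest UMI totals were 807, 3338 and 21561 in the implanted library and 1632, 3688 and 16925 in the non-implanted library. The libraries shared 6 barcodes, and 0 of these belonged to a B-lineage cell. Rag1, Igkc, Irf8, Ighg1 and Ighe were listed at 0 in every cell of both libraries, so nothing is read from those genes, and the precursor sum used below rests on Vpreb1, Igll1 and Dntt. All intervals are 95% intervals that cover counting error only; neither the spread between animals nor that between libraries could be measured, and no test was made between the libraries.

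The genes outside the choice marked these cells as B lineage. Cd79a, which encodes a signalling chain of the B-cell receptor, lies at chr7:24897381-24902197 on GRCm38 (GENCODE M21); Cd79b, its partner, lies at chr11:106311341-106314762. The summed Cd79a and Cd79b count per cell had a lowest, median and highest value of 5, 14 and 40 UMIs in implanted cells and 3, 16 and 48 UMIs in non-implanted cells, so few cells sat at the limit: 1 non-implanted cell had 3 UMIs and 2 had 4. Just outside it, 4 implanted and 8 non-implanted cells had 2 UMIs, and of these 1 and 0 had at least 3 UMIs of Ebf1. Ebf1, the transcription factor that specifies the lineage (chr11:44617317-45008091), was detected in 34 of 35 implanted and 22 of 23 non-implanted cells, with medians of 29 and 26 UMIs per cell. Pax5 was detected in 34 and 21 cells, and Ighm, the heavy chain of IgM (chr12:113418558-113422730), in all 35 and all 23. For comparison, 0.626% of implanted and 0.403% of non-implanted neutrophil-lineage cells (at least 5% of UMIs from S100a8 and S100a9; median 4104 and 4045 UMIs) held an Ebf1 UMI, but 30.4% and 27.8% held an Ighm UMI, so a low Ighm count in a cell is not above what cells of another lineage held; whether those UMIs were free RNA was not tested. The map of UMIs by cell shows Ebf1, Pax5 and Bach2 in nearly every column.

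**Figure D1:**
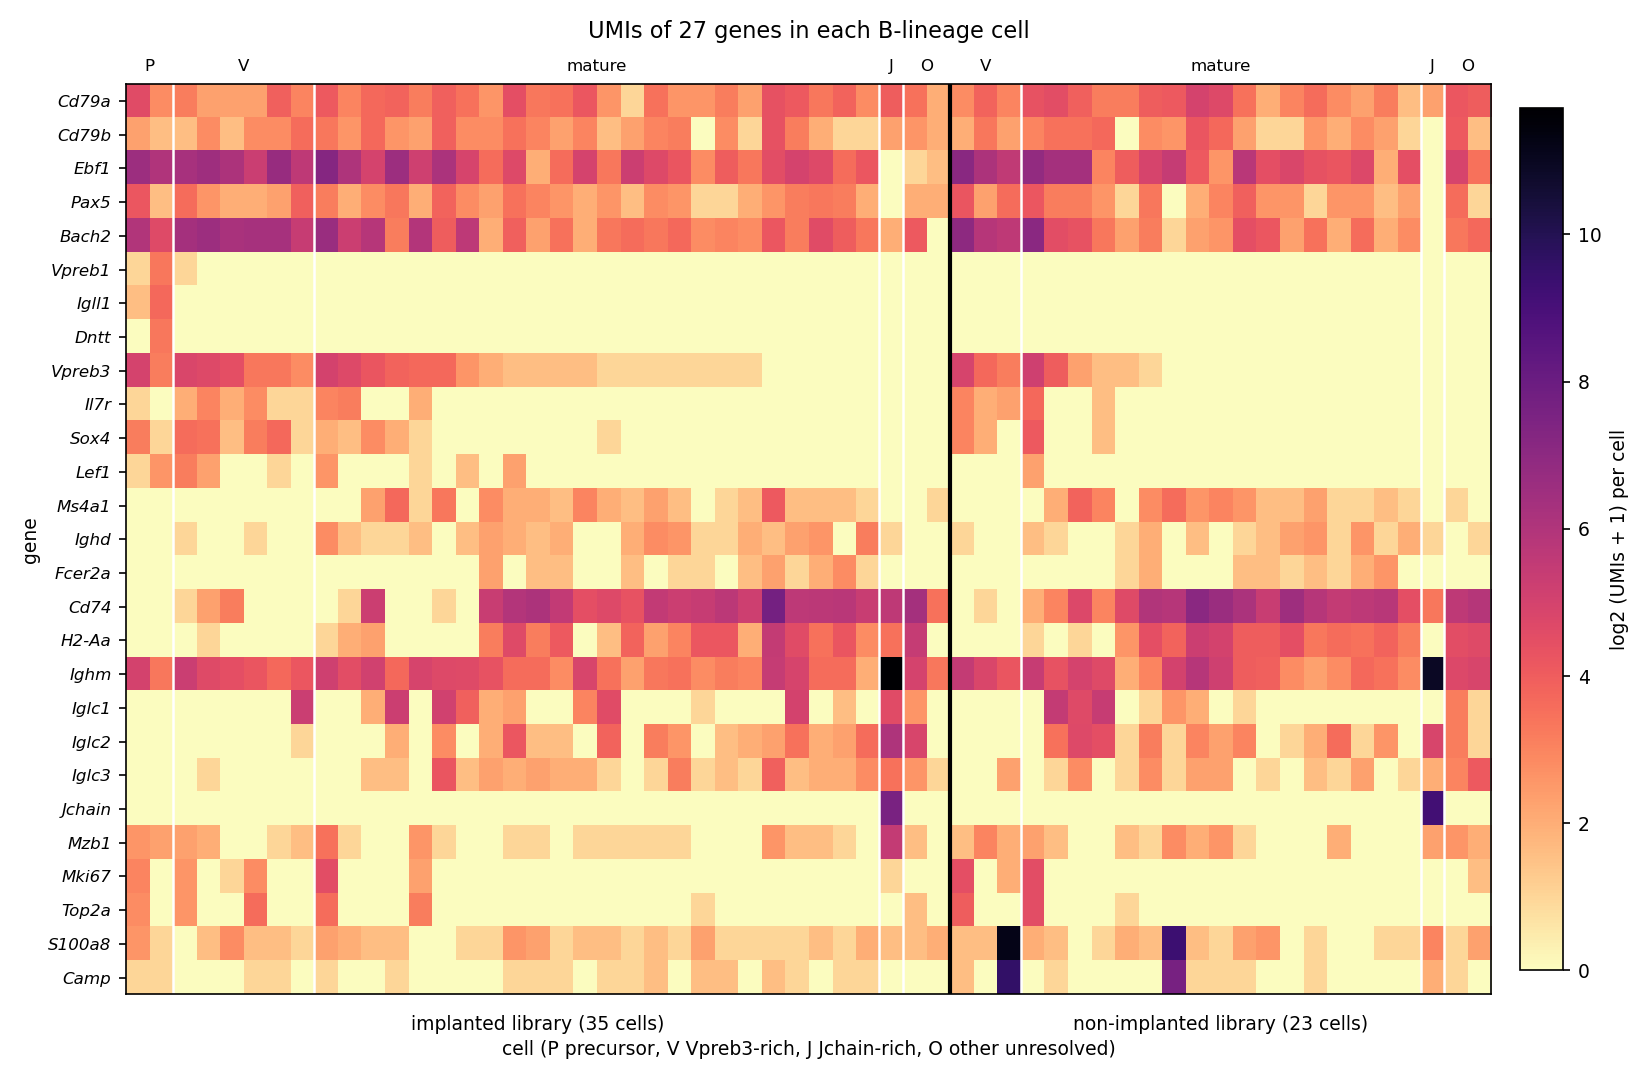
UMIs of 27 genes (rows) in each of the 58 B-lineage cells (columns), on a log2 (UMIs + 1) colour scale, ordered by library and by state. Vpreb1, Igll1 and Dntt are filled in few implanted columns, Vpreb3 and Cd74 fill mostly different columns, and the darkest squares are Ighm and Jchain in 1 cell of each library and S100a8 and Camp in 2 non-implanted cells.

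Markers of other cell types differed in how often they were found. T-cell markers (7 genes) summed to 0 UMIs in implanted and 1 in non-implanted cells, natural killer markers (5 genes) to 0 and 0, and basophil or mast-cell markers (4 genes) to 0 and 0. The 7 plasmacytoid dendritic cell markers, some of which B cells share, summed to 236 and 137 UMIs, with Siglech, Klk1 and Cd300c at 0 in both. Monocyte markers (5 genes) summed to 16 and 14 UMIs, conventional dendritic cell markers (5 genes) to 2 and 4, promyelocyte markers (5 genes) to 4 and 0, megakaryocyte markers (3 genes) to 7 and 0, and stem or progenitor markers (4 genes) to 72 and 32, with Cd34 at 0 in both. The 6 macrophage markers summed to 72 and 45 UMIs, with C1qa and Mrc1 at 0 in both libraries, and the 6 erythroid markers to 25 and 10 UMIs. Neutrophil transcripts are described further on.

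Promoters of 3 genes are shown because their transcripts carry the description: Cd79a chose the cells, Vpreb3 separates them, and Igll1 marks the earliest of them. Each run covers 250 bases before to 50 bases after the RefSeq start site (GRCm38.p6), read 5′ to 3′ on the gene's strand, at chr7:24897247-24897546 (plus strand), chr10:75948050-75948349 (plus strand) and chr16:16863936-16864235 (minus strand). Capitals mark GGGAAT, one arm of the site bound by early B-cell factors such as EBF1.
Cd79a: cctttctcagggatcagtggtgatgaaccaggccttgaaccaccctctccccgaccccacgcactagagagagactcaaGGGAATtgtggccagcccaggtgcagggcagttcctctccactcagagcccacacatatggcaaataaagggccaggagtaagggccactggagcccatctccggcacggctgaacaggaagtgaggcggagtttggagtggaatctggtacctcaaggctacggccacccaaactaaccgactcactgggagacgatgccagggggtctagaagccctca
Vpreb3: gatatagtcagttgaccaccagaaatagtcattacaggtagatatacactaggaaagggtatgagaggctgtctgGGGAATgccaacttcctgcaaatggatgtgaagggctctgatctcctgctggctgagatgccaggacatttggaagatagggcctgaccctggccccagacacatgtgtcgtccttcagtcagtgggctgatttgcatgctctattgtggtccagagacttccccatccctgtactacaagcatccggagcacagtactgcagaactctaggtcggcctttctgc
Igll1: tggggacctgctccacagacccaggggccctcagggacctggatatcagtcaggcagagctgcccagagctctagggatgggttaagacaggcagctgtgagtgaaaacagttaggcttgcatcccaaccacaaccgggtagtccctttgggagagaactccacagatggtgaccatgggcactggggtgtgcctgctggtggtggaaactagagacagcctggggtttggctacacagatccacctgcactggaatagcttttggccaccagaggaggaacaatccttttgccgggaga

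GGGAAT began 171 bases before the start site of Cd79a and 175 bases before that of Vpreb3, and the Igll1 window did not hold it. The motif occurs in 13.1% of the 32851 promoter windows of the same length. Of 15 B-cell genes looked up, 11 had an entry and 4 held it in at least 1 window: Cd79a, Vpreb3, Fcer2a and Ebf1. It was marked after 13 overlapping motifs had been searched on both strands, and the choice followed from which of them matched. An EBF site with both arms (0.904% of all windows) and CCCAAGGGA, TCCCNNGGG, CCCNAGGGA, CCCNNGGGA and CACGTG matched in 0 of the 11 genes. CAAGGGAAT (0.244% of all windows) and AAGGGAAT matched in Cd79a alone, CCCNNGGG in Igll1 alone, CANNTG in all 11, CAGGTG in 7 and CAGCTG in 4. A match describes letters only.

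The first comparison resolved precursor from mature cells. A cell was called precursor when Vpreb1, Igll1, Dntt and Rag1 together had at least 2 UMIs and more than Ms4a1 (CD20), Ighd (the IgD heavy chain) and Fcer2a (CD23) together, and mature in the opposite case. In the implanted library 24 of 35 cells (68.6%, interval 50.7 to 83.1) were mature, 2 (5.71%, 0.700 to 19.2) were precursor and 9 (25.7%) met neither condition. The non-implanted library had 17 of 23 mature cells (73.9%, 51.6 to 89.8), 6 unresolved cells (26.1%) and 0 precursors, a count that allows a share of up to 14.8%. The difference in the mature share, -5.34 percentage points (-26.7 to 18.8), and that in the precursor share, 5.71 points (-9.18 to 18.6), both lay within counting error. Many cells sat near the limit: 4 implanted and 2 non-implanted cells were mature with exactly 2 UMIs of the 3 mature genes, and 4 in each library had 1 UMI. The sum over mature cells had a lowest, median and highest value of 2, 7 and 22 UMIs (implanted) and 2, 7 and 13 UMIs (non-implanted). The class names follow these counts alone, and other genes of a cell can go against them. A mature implanted cell held 6 UMIs of Ighd and 0 of Ms4a1 and Fcer2a, with 31 of Vpreb3 and 22 of the proliferation gene Mki67. A mature non-implanted cell held 2 of Ighd and 0 of the other 2 mature genes, with 35 of Vpreb3 and 22 of Mki67.

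Both precursor cells came from the implanted library and differed from each other. The first held 9231 UMIs, with 1 UMI of Vpreb1, 2 of Igll1, 0 of Dntt and 30 of Vpreb3, and it had 7 UMIs of the proliferation gene Mki67 and 6 of Top2a, the topoisomerase of dividing cells. The second held 2981 UMIs, with 9 of Vpreb1, 5 of Vpreb2, 12 of Igll1, 9 of Dntt, the enzyme that adds bases at heavy-chain joints, and 1 of Rag2, a recombinase subunit; its Mki67 and Top2a counts were 0. Ebf1 was high in both, at 94 and 63 UMIs. Cd74, Ms4a1, Ighd, Fcer2a and the lambda constant regions were at 0 in both cells. All 14 Igll1 UMIs of the 2 filtered libraries lay in these 2 cells. Vpreb1 and Vpreb2 transcripts are 97.5% identical over 686 aligned bases, so their counts are uncertain relative to each other.

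Vpreb3 divided the remaining cells further. VPREB3 is a relative of the surrogate light chain that associates with newly made immunoglobulin chains, and its transcript is known from precursor and immature B cells onward. Vpreb3 was nearly confined to the chosen cells, with 269 UMIs in implanted and 108 in non-implanted B-lineage cells against 1 and 2 UMIs in all other cells. Of the unresolved cells, 6 implanted and 3 non-implanted had at least 5 UMIs of it and are called Vpreb3-rich, a limit set after the counts had been seen. Their Vpreb3 counts had a lowest, median and highest value of 6, 15 and 27 UMIs (implanted) and 8, 12 and 29 UMIs (non-implanted). Ms4a1 and Fcer2a were at 0 in all 9 of these cells, and Ighd had 2 UMIs over the 6 implanted and 1 over the 3 non-implanted cells. These 3 genes define the mature class, so their low sum in unresolved cells was fixed by the class rule and is not a finding. Il7r, the receptor for the precursor growth factor interleukin 7, was detected in all 9, with 1 to 7 UMIs (implanted) and 3 to 7 UMIs (non-implanted).

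Across all 58 cells Cd74 and Vpreb3 took opposite positions. Cd74, the invariant chain that accompanies MHC class II, had a gap in its counts: 15 implanted cells had 0 to 10 UMIs and the other 20 had 19 to 207, while 7 non-implanted cells had 0 to 9 and the other 16 had 21 to 132. At least 5 UMIs of Vpreb3 were found in 14 of the 15 Cd74-poor implanted cells and in 1 of the 20 others, and in 5 of the 7 Cd74-poor non-implanted cells and in 0 of the 16 others. The exceptions among Cd74-poor cells were the cell with 807 UMIs in the implanted library, and in the non-implanted library a Jchain-rich cell and a mature cell with 2 UMIs of Vpreb3. Because the limit of 10 UMIs was placed in the gap after seeing it, the split is a description. The Cd74-poor share was 42.9% (26.3 to 60.6) for implanted cells and 30.4% (13.2 to 52.9) for non-implanted cells, a difference of 12.4 points (-12.8 to 34.4).

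**Figure D2:**
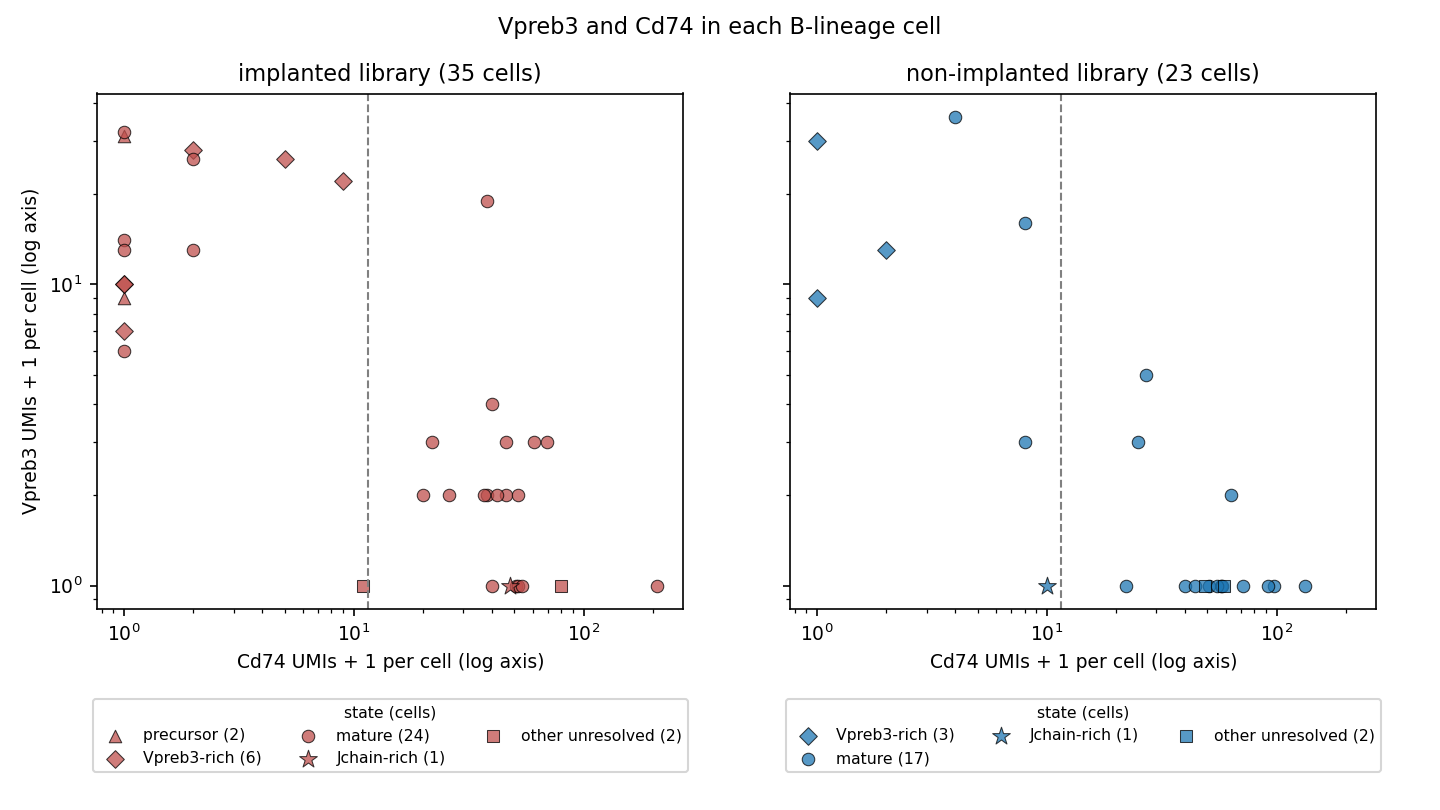
Vpreb3 UMIs + 1 (vertical, log axis) against Cd74 UMIs + 1 (horizontal, log axis) in each B-lineage cell, by library and state; the dashed line separates cells with at most 10 Cd74 UMIs. Cells left of the line mostly have at least 5 Vpreb3 UMIs, and 1 implanted mature cell combines 37 Cd74 with 18 Vpreb3 UMIs.

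Other genes followed the same division in both libraries. Il7r had 40 UMIs in Cd74-poor and 0 in the other implanted cells, and 28 and 0 in the non-implanted library. Bank1, a scaffold of B-cell receptor signalling, had 187 CPM (UMIs per 1000000) in Cd74-poor against 3376 CPM in the other implanted cells, and 183 against 4024 CPM in the non-implanted library. Bach2, a repressor that restrains plasma-cell differentiation, had the opposite order, with 11548 against 2551 CPM and 7212 against 2137 CPM. Pooled Ebf1 levels were 14731 against 3546 CPM in the implanted library and 8235 against 6489 CPM in the non-implanted one, values that were not tested against each other. The non-implanted Cd74-poor pool included a neutrophil-rich cell (16925 UMIs, 46 of Ebf1) and the Jchain-rich cell (6510 UMIs, 0 of Ebf1). The other implanted cells included a Jchain-rich cell (9297 UMIs, 0 of Ebf1) and the deepest cell (21561 UMIs, 1 of Ebf1). The effect of these cells on pooled levels was not tested. Medians of Ebf1 per cell were similar in the 2 libraries, at 67 against 16 UMIs (implanted) and 69 against 21 UMIs (non-implanted). Fcer2a was at 0 in every Cd74-poor cell and had 29 and 20 UMIs in the others. The mature class contained cells of both kinds: 6 of 24 implanted and 3 of 17 non-implanted mature cells were Cd74-poor, with 5 to 31 and 2 to 35 UMIs of Vpreb3. Cells with at least 2 UMIs of Mki67 and Top2a together numbered 5 of 15 Cd74-poor against 1 of 20 other implanted cells, and 3 of 7 against 1 of 16 non-implanted cells.

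Vpreb3-rich and mature cells were also set side by side over all genes, ordered by the smaller of the 2 libraries' log2 ratios, as a description. Atp1b1, a sodium pump subunit, had 1342 CPM in Vpreb3-rich against 130 CPM in mature implanted cells, and 711 against 111 CPM in the non-implanted library. Cecr2, a chromatin remodelling factor, had 2901 against 573 CPM and 2037 against 404 CPM. Akap12, a kinase scaffold, had 1124 against 346 CPM and 679 against 195 CPM. Bcl2l1, the survival gene that encodes BCL-XL, had 399 against 108 CPM in implanted and 162 against 41.8 CPM in non-implanted cells, whereas its relative Bcl2 was at 0 in Vpreb3-rich cells against 249 and 404 CPM in mature cells. Among the genes with the lowest ratios were H2-Aa and H2-Eb1, the MHC class II chains, and Cd83, a surface protein that stabilises MHC class II, which had 0 UMIs in Vpreb3-rich cells of both libraries against 46 and 53 in mature cells. The other genes among the 12 highest were Dnajc21, Tifa, Spns3, Elof1, C1galt1, Mpc2, Wrn and Iqgap2, and the other 8 among the 12 lowest were Ms4a1, Bank1, Hspa1a, Cd74, Iglc2, H2-DMb2, Sox5 and Fcer2a. Ms4a1 and Fcer2a belong to the definition of the mature class, so their place here was fixed by it. The mature and Vpreb3-rich states were cut from counts of the same cells, and 1 of the 3 non-implanted Vpreb3-rich cells was rich in neutrophil transcripts.

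One cell in each library was rich in Jchain, which encodes the chain that joins IgM and IgA multimers. The implanted cell held 192 UMIs of Jchain and 3364 of Ighm among 9297 UMIs, so that Ighm alone made up 36.2% of its RNA molecules. In the non-implanted cell these counts were 577 and 1958 of 6510 UMIs, with Ighm at 30.1%. Both lacked Ebf1, Pax5, Vpreb3 and Ms4a1. Other plasma-cell markers varied. Mzb1, an endoplasmic reticulum chaperone of antibody assembly, had 44 and 4 UMIs, and Xbp1, the secretory regulator, 10 and 7. Sdc1, the surface marker CD138, had 4 and 2, and Prdm1, the plasma-cell regulator BLIMP1, 1 and 6. Of the same markers, Tnfrsf17 had 0 UMIs in both cells and Irf4 had 1 and 0. Mzb1 also reached 10 UMIs in a mature implanted cell, so a count of 4 is not particular to Jchain-rich cells. The 2 Jchain-rich cells held 84.6% and 81.0% of all Ighm UMIs of the B-lineage cells in their libraries. A summed Ighm level is therefore mostly the level of 1 cell.

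Light-chain transcripts were read through the lambda constant regions Iglc1, Iglc2 and Iglc3 and the kappa variable segments, since Igkc was listed at 0. Lambda constant regions had 514 UMIs in 25 of 35 implanted and 331 UMIs in 20 of 23 non-implanted cells. Kappa variable segments had 63 UMIs in 8 cells and 17 UMIs in 8 cells, and 53 of the implanted ones came from the Jchain-rich cell. Among mature cells, 20 of 24 implanted and 16 of 17 non-implanted held a lambda UMI, but only 11 and 6 held at least 10. In Vpreb3-rich cells lambda UMIs were found in 2 of 6 and 1 of 3. Transcripts of Iglc2 and Iglc3 are 95.5% identical over 449 bases and their counts cannot be separated with confidence.

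The cell with the most UMIs carried transcripts of another lineage. This implanted barcode held 21561 UMIs, with 10 of Cd79a, 5 of Cd79b, 3 of Pax5, 1 of Ebf1 and 79 of Cd74. It also held 62 UMIs of Acp5 and 47 of Ctsk, the tartrate-resistant phosphatase and the cathepsin of bone-resorbing osteoclasts, and 49 of Mitf, a transcription factor of osteoclasts and melanocytes. Over the other 57 cells together Ctsk and Mitf had 0 UMIs and Acp5 had 21, at most 3 in a cell. These genes were chosen after the leading transcripts of the cell had been seen. It was not among the 84 implanted barcodes with the highest doublet scores (Scrublet). Counts over genes are given further on without it, together with the 2 neutrophil-rich cells described next.

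Neutrophil RNA was measured as the share of a cell's UMIs from S100a8, S100a9, Camp, Ngp, Ltf, Lcn2 and Retnlg. S100a8 and S100a9 form calprotectin, and Camp, Ngp, Ltf and Lcn2 encode granule proteins. In implanted cells this share had a lowest, median and highest value of 0.0788%, 0.206% and 0.867%. Non-implanted cells had the same median level, 0.212%, and a lowest value of 0.0298%, but 2 of the 23 stood far above the rest, at 14.9% and 38.3%, with all others at or below 0.492%. The cell at 38.3% was Vpreb3-rich and held 2345 UMIs of S100a8 and 760 of Camp among 16925 UMIs. That at 14.9% was mature and held 638 and 193 among 10249 UMIs. Both were among the deepest B-lineage cells of their library, and a doublet score (Scrublet) placed 1 of the 2 among the cells with the highest scores.

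**Figure D3:**
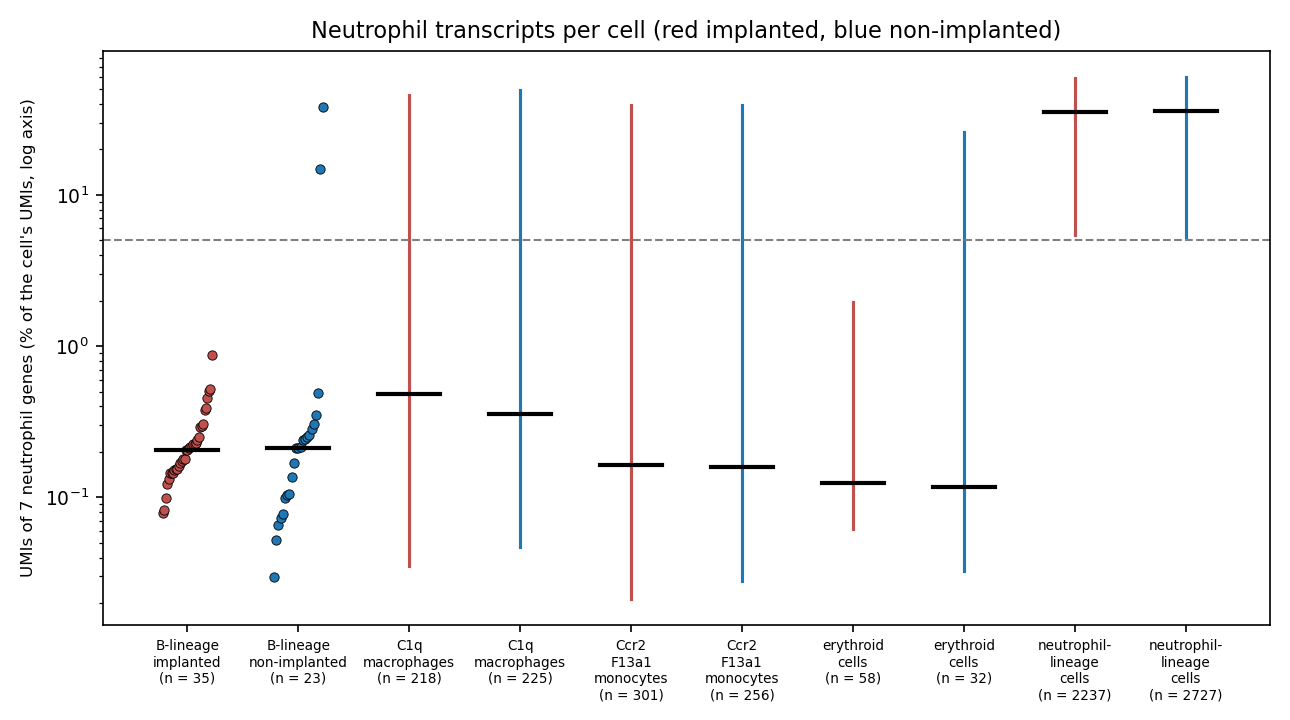
Share of each cell's UMIs from 7 neutrophil genes (log axis). Points are single B-lineage cells, vertical lines run from the lowest to the highest cell of the other classes, black bars are medians, and the dashed line is at 5%. Of the B-lineage cells, 2 non-implanted ones lie above the line.

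Outside those 2 cells the level was like that of other cells that are not neutrophils. Median shares were 0.481% and 0.354% in C1q macrophages (at least 5 C1q UMIs), 0.164% and 0.158% in Ccr2 F13a1 monocytes (at least 4 UMIs) and 0.125% and 0.117% in erythroid cells (at least 10% hemoglobin UMIs) of the implanted and non-implanted library. Single cells above 5% occurred there too, 51 of 218 and 54 of 225 C1q macrophages and 16 of 301 and 15 of 256 monocytes. Neutrophil-lineage cells had medians of 35.6% and 35.7%. The ratio of S100a8 to Camp UMIs was 3.23 in implanted and 3.14 in non-implanted B-lineage cells, beside 3.28 and 3.33 in neutrophil-lineage cells; without the 2 cells the non-implanted ratio was 3.82, from 42 and 11 UMIs. Summed over cells, S100a8 had 433 CPM in implanted and 25446 CPM in non-implanted B-lineage cells, but 458 CPM in the latter without the 2 cells, and Camp had 134 against 8109 CPM, or 120 CPM without them. All 14 tested neutrophil-lineage genes (of 15 listed) were at least 2-fold lower in the implanted library with the 2 cells included, where 3.74% of all tested genes were. Without the 2 cells 1 was at least 2-fold lower (2.93% of all tested genes) and 2 were at least 2-fold higher (5.94%). The 2 higher genes were Anxa1, at a log2 ratio of 1.70, and Ltf, at 1.25, and the list's median was 0.13. Leaving out the implanted cell with the most UMIs as well moved Anxa1 to 0.57, no longer past 2-fold, and Ltf to 1.41.

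The second comparison asked how B-lineage cells of implanted and non-implanted cochleae differed in number. They were 35 of 3149 filtered implanted cells (1.11%, 0.775 to 1.54) and 23 of 3513 filtered non-implanted cells (0.655%, 0.415 to 0.981). The difference was 0.457 percentage points, with an interval from 0.00618 to 0.939 that only just cleared 0. Its lower bound fell below 0 with a minimum of 2 UMIs of Cd79a and Cd79b (0.356 points, -0.139 to 0.876), without a cell filter (-0.00634), without limits on C1q, Ccr2 and F13a1 (-0.0100), and when these genes had to be at 0 (0.266 points, -0.163 to 0.721). Neutrophil-lineage cells made up most of both libraries and were the larger group in the non-implanted one, with 2727 against 2237 cells. Among the cells that were not neutrophil-lineage, 35 of 912 were B-lineage in the implanted library (3.84%, 2.69 to 5.30) and 23 of 786 in the other (2.93%, 1.86 to 4.36), and the difference of 0.912 points (-0.869 to 2.66) lay within counting error. Mature cells made up 0.762% and 0.484% of filtered cells, and all other B-lineage cells 0.349% and 0.171%.

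The libraries also differed in how many cells held Vpreb3. At least 1 UMI was found in 27 of 35 implanted cells (77.1%, 59.9 to 89.6) and in 9 of 23 non-implanted cells (39.1%, 19.7 to 61.5), a difference of 38.0 points (12.2 to 58.1). Several of these cells, in both libraries but more in the implanted one, held only 1 or 2 UMIs. The size of the difference therefore depends on the limit of 1 UMI, and no interval was calculated for a limit of 5 UMIs. At least 5 UMIs were found in 2 precursor, 6 Vpreb3-rich and 7 mature implanted cells, and in 3 Vpreb3-rich and 2 mature non-implanted cells. Within mature cells alone, 19 of 24 (79.2%) and 6 of 17 (35.3%) held at least 1 UMI, a difference of 43.9 points (13.3 to 65.3). The mature class still contained 6 implanted and 3 non-implanted Cd74-poor cells, of which 6 and 2 had at least 5 Vpreb3 UMIs. It therefore did not separate the 2 kinds of cells described above. With every cell thinned to 1000 UMIs, which left out 1 implanted cell, 67.6% and 26.1% of all B-lineage cells held Vpreb3. In neutrophil-lineage cells, which should lack it, the shares were 0.0447% and 0.0733%. The summed level was 1641 CPM (1451 to 1849) against 908 CPM (745 to 1097), a ratio of 1.81 (1.44 to 2.28). Without the 2 neutrophil-rich cells the non-implanted level was 1090 CPM. Vpreb3 was singled out after its values had been seen, and UMIs of 1 cell are not independent draws, so the interval of the ratio is too narrow.

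Across all genes, 204 of 3152 genes with at least 20 UMIs over both libraries were at least 2-fold higher in implanted cells (6.47%) and 118 at least 2-fold lower (3.74%), on the log2 scale of CPM + 20. The median log2 ratio of all tested genes was 0.11. Of the tested genes, 1681 had fewer than 40 UMIs in all. Leaving out the 21561-UMI implanted cell and the 2 neutrophil-rich non-implanted cells reduced the counts to 123 and 76 of 2642 genes. Each library contributed 1 sum, so a ratio that follows shows the size of a difference between 2 pools of cells.

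Genes of early B cells had the highest median of the 14 lists. In the list of pre-B-cell receptor and recombination genes (20 genes, 9 tested), 2 were at least 2-fold higher in implanted cells and 0 lower, with a median log2 ratio of 0.78 beside 0.11 for all genes. The 2 were Lef1, a Wnt effector of pro-B cells, with 31 UMIs in 9 implanted and 4 UMIs in 1 non-implanted cell, and Tifa, a signalling adaptor, with 47 and 15 UMIs. Without the 2 neutrophil-rich cells the median was 0.45 and 1 gene remained past 2-fold. Sox4, needed for early B-cell survival, had 69 UMIs in 14 cells against 28 in 4 cells, whereas Il7r was level, at 244 and 236 CPM. In mature cells alone 0 of 6 tested genes of this list passed 2-fold in either direction.

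Lists of mature and core B-cell genes lay near the background. Among mature B-cell genes (20 genes, 19 tested) 1 was at least 2-fold higher, 1 lower, and the median was 0.04. The higher one was Tnfrsf13c, the receptor for the survival factor BAFF, with 33 UMIs in 19 of 35 implanted cells and 3 UMIs in 2 of 23 non-implanted cells (201 against 25.2 CPM, ratio 7.98, 2.50 to 40.7). The lower one was Cr2, a complement receptor, with 12 UMIs in 5 cells against 20 UMIs in 6 cells. Of the 20 non-implanted UMIs, 12 lay in 1 mature cell, so the ratio rests largely on that cell. Ms4a1 had 519 against 597 CPM, Fcer2a 177 against 168 CPM and Bank1 2025 against 2254 CPM. B-lineage transcription factors (20 genes, 18 tested) had 1 higher, 0 lower and a median of 0.16: Foxo1, which drives expression of the recombination genes and the IL-7 receptor, had 500 against 236 CPM, while Ebf1 (8284 against 7293 CPM) and Pax5 (1208 against 1211 CPM) differed by less than 1.5-fold. Without the 2 neutrophil-rich cells Foxo1 had a log2 ratio of 0.83 and was no longer past 2-fold. Leaving out the implanted cell with the most UMIs as well moved Foxo1 to 1.01, again past 2-fold. B-cell receptor signalling genes (20 genes, all tested) had 1 higher, 0 lower and a median of -0.02; Cd72, an inhibitory coreceptor, had 48 UMIs in 20 cells against 13 UMIs in 8 cells (293 against 109 CPM). Immunoglobulin constant regions had 0 of 5 tested genes past 2-fold and a median of 0.25.

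**Figure D4:**
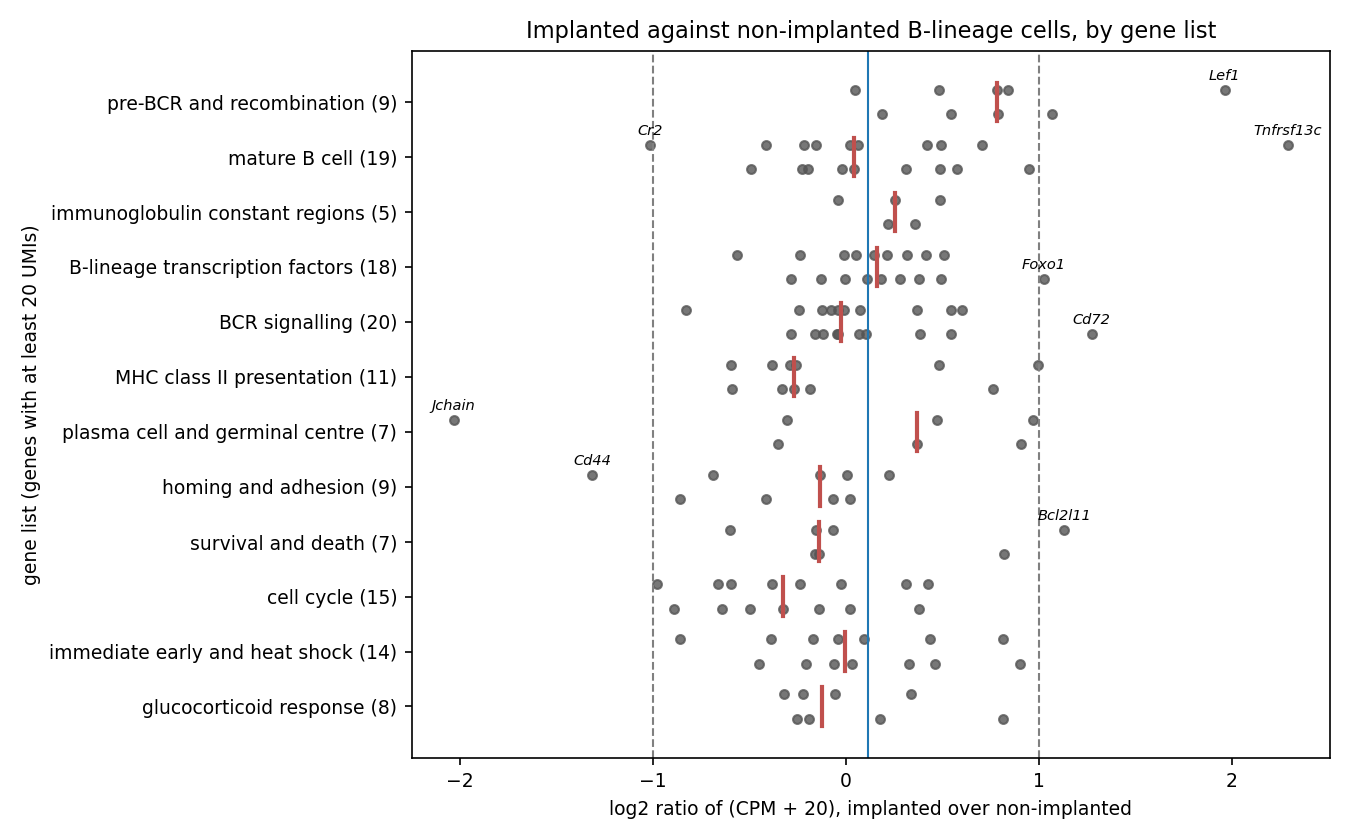
Log2 ratio of (CPM + 20), implanted over non-implanted (horizontal), of the tested genes of 12 lists (rows, number of genes in brackets) over all B-lineage cells. Points are genes, red bars list medians, the blue line is the median of all tested genes and dashed lines mark 2-fold; the median of the pre-B-cell receptor list, 0.78, lies farthest to the right.

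Other lists had few genes past 2-fold. MHC class II presentation genes had 0 of 11 tested genes in either direction and a median of -0.27, led by Cd74 (6558 against 8025 CPM) and H2-Aa (1714 against 2162 CPM); Cd74-poor cells were 42.9% and 30.4% of the 2 libraries. Cell-cycle genes had 0 of 15 and a median of -0.32, with Mki67 at 281 against 404 CPM and Top2a at 268 against 320 CPM, and cells with at least 2 UMIs of these 2 genes were 6 of 35 and 4 of 23. Plasma-cell and germinal-centre genes had 0 higher and 1 lower of 7; the lower one, Jchain, came from 1 cell in each library. Homing and adhesion genes had 0 higher and 1 lower of 9, Cd44, a hyaluronan receptor, with 140 against 379 CPM. Survival genes had 1 higher and 0 lower of 7, Bcl2l11, which encodes the death-promoting protein BIM, with 16 UMIs in 7 cells against 4 UMIs in 3 cells. Glucocorticoid-response genes had 0 of 8 and a median of -0.12, including Tsc22d3 (GILZ), with 293 against 345 CPM, and Nr3c1, the glucocorticoid receptor, with 268 against 236 CPM. Immediate early and heat-shock genes had 0 of 14 and a median of -0.01, and interferon-response genes 0 of 3 and a median of 0.13. Without the 2 neutrophil-rich cells the median of the MHC class II list was -0.55 and that of the cell-cycle list -0.59, with 1 cell-cycle gene, Cenpa, at least 2-fold lower (-1.07). Without them 1 glucocorticoid-response gene was at least 2-fold higher, Dusp1, with a log2 ratio of 1.56. The medians of the mature B-cell (-0.12), transcription factor (-0.06), immunoglobulin (-0.03), glucocorticoid-response (0.11) and immediate early (0.04) lists then had the opposite sign, and that of the interferon list was -0.0014. Leaving out the implanted cell with the most UMIs as well moved Cenpa to -0.89, no longer past 2-fold, and Dusp1 to 1.74.

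The genes with the highest ratios, among those found in at least 5 cells and with at most 50% of their UMIs in 1 cell of the higher library, were Lgr5, Uqcrc1, Tnfrsf13c, Gclc, Naa38, Grn, Itpkb, Bub1b, Hist1h2ae, Lef1, Eif3s6-ps1 and Ext1. Lgr5, a receptor for the Wnt-enhancing R-spondins, had 20 UMIs in 7 implanted cells and 0 in non-implanted cells. With the non-implanted level set to 3 UMIs its level was 4.83-fold higher, and the lower interval bound of the observed ratio was 3.58. Gclc, the catalytic subunit of the first enzyme of glutathione synthesis, had the most UMIs of the group, 151 in 14 implanted and 21 in 7 non-implanted cells (921 against 177 CPM, ratio 5.21, 3.29 to 8.67). Itpkb, a kinase that ends inositol trisphosphate signals, had 28 UMIs in 16 cells against 3 in 3 cells. Bub1b, a mitotic checkpoint kinase, had 21 UMIs in 6 cells against 2 in 1 cell. Of the 12 genes, 8 had at most 3 UMIs in the non-implanted library, so their ratios are imprecise, and Eif3s6-ps1 is a pseudogene whose reads may belong to its parent gene.

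The genes with the lowest ratios were Samsn1, Syne1, Cybb, Sox5, S100a6, Exoc5, Sbno2, Trak2, Entpd1, Setbp1, Traf3ip2 and Grk5. Sox5, a transcription factor, had 35 UMIs in 7 implanted and 95 UMIs in 8 non-implanted cells (214 against 799 CPM, ratio 0.267, 0.176 to 0.397). Samsn1, an adaptor that dampens B-cell receptor signals, had 7 UMIs in 5 cells against 43 in 7 cells. Leaving out the 2 neutrophil-rich cells moved Syne1 from -2.27 to -0.52 and Cybb, a subunit of the phagocyte NADPH oxidase, from -2.11 to -0.98, so that neither was past 2-fold. Sox5 (-1.90), Samsn1 (-2.33) and S100a6 (-1.47), a calcium-binding protein, stayed past 2-fold without them. Within mature cells alone, also without them, Sox5 (-1.67) and S100a6 (-1.98) stayed past 2-fold but Samsn1 did not (-0.30). Of the non-implanted Samsn1 UMIs, 48.8% lay in 1 cell.

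Within mature cells alone (24 implanted, 17 non-implanted), 104 of 1810 tested genes were at least 2-fold higher (5.75%) and 67 at least 2-fold lower (3.7%), with a median log2 ratio of 0.06. Of these cells 6 implanted and 3 non-implanted were Cd74-poor. Itpkb, Tnfrsf13c and Gclc were among the 12 highest here too. Itpkb had 25 UMIs in 13 cells against 2 UMIs in 2 cells, and Tnfrsf13c 26 UMIs in 13 cells against 3 in 2 cells (281 against 41.8 CPM, ratio 6.73, 2.06 to 34.7). Adam10, a protease that sheds CD23, had 38 UMIs in 15 cells against 8 in 6 cells. Sipa1l2, Gm3788, Cep57, Hdac8, Mnat1, Tspan13, Ggnbp2 and Pcm1 completed the 12. The lowest were S100a6, Dusp10, Cd44, Sox5, Il5ra, Rps19, Chst11, Nfkbid, Mapk14, Gm1966, Dhx9 and Xist. Il5ra, the interleukin 5 receptor, had 6 UMIs in 3 cells against 18 in 7 cells, and Nfkbid, an NF-kappaB regulator, 17 UMIs in 9 cells against 38 in 13 cells. Xist, which is expressed from the inactive X chromosome of females, was found in 1 implanted and 4 non-implanted mature cells, in libraries that pooled both sexes. Among mature B-cell genes, 4 of 19 tested were at least 2-fold higher and 0 lower in mature cells: Tnfrsf13c, Gpr183, Fcrl1 and Scd1. Without the neutrophil-rich mature cell 4 were higher and 1, Cr2, was lower (-1.13), with 12 of its non-implanted UMIs in 1 cell. Of the 24 genes with the highest and lowest ratios, Mapk14 (-0.95) was then no longer past 2-fold.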

How the data were processed

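Single-cell 3' RNA libraries of CD11b-selected cochlear cells were analysed, 1 per group. The deposited matrices hold raw UMI counts per gene and barcode, which the authors made with Cell Ranger 3.0.1, per the file headers; the tools in the submitters' processing notes are Cell Ranger and Seurat, and the build is mm10 (GRCm38). Aligner settings: not given in the sources used here. Gene coordinates are those of GENCODE M21, in which 48349 of 48709 gene identifiers matched without their version.

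From the counts, cells were filtered, chosen and classed as described with Python 3.11.15, numpy 2.4.6, pandas 2.3.3 and scipy 1.17.1. Intervals are Clopper-Pearson for shares, Newcombe (statsmodels 0.14.6) for their differences, exact Poisson for CPM and exact conditional for ratios, all at 95% and for counting error only. Counts were summed per library and class; log2 ratios are those of CPM plus 20 over genes with at least 20 UMIs. Named genes were the 12 highest and 12 lowest ratios among genes in at least 5 cells with at most 50% of the higher library's UMIs in 1 cell, and members of the B-cell lists. That rule for precursor against mature cells could not be applied, because 1 library had no precursor, and was applied to Vpreb3-rich cells. No doublets were removed; an alternative left out the highest Scrublet scores (scanpy 1.11.5), 84 and 102 cells. The calculations were tested on simulated data. Members, classes and gene lists were chosen with earlier results of these data known, and the Vpreb3-rich, Jchain-rich and Cd74-poor states, the motifs and the osteoclast genes after their counts were seen. Dissociation details differ between the sample labels and the series text and are not used here.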

Additional observations from a re-analysis of the deposited data

Results flagged for a closer look

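Cells with at least 3 UMIs of Cd79a and Cd79b that were left out of the B-lineage cells by the C1q or the Ccr2 and F13a1 limits, 4 in each library, were screened for 8 B-lineage genes. Of these, 2 were above the level in the non-implanted cells. Jchain had 1569 CPM (1388 to 1767) in the implanted cells, with all 272 UMIs in 1 cell, against 0 UMIs in the non-implanted cells (up to 69.6 CPM). Iglc1 had 8692 CPM (8259 to 9143), with 1505 of 1507 UMIs in 1 cell, against 18.9 CPM (0.478 to 105). Ighm (34.6 against 698 CPM), Cd79a (57.7 against 113 CPM), Ebf1 (104 against 189 CPM), Ighd (34.6 against 113 CPM) and Ms4a1 (0 against 56.6 CPM) had lower values in the implanted cells, and Vpreb3 had 0 UMIs in both. The 8 genes were chosen after some of their values had been seen. Ighg2c, the heavy chain of the IgG2c class, had 1506 UMIs in 1 implanted cell outside the B-lineage cells and 0 UMIs in the non-implanted library.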

How the results depend on the processing

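The B-lineage share was larger in the implanted library under all 10 alternatives (difference 0.266 to 0.912 points). Among cells that are not neutrophil-lineage, a denominator added after seeing the data, the shares were 3.84% and 2.93%. With at least 2 UMIs of Cd79a and Cd79b the mature shares were 64.1% and 54.8%, and their difference turned from -5.34 to 9.26 points (-13.1 to 30.8); both intervals include 0. Class shares also depended on the class rule: a minimum of 1 UMI gave a mature share of 91.3% in the non-implanted library, adding Rag2 and Vpreb3 to the precursor sum gave precursor shares of 40.0% (implanted) and 21.7% (non-implanted) and an implanted mature share of 48.6%, and classes on counts thinned to 1000 UMIs gave mature shares of 35.3% and 47.8%. Counts of genes at least 2-fold higher and lower were 204 and 118 of 3152 tested genes (6.47% and 3.74%) in the main setting. With no limit on C1q, Ccr2 and F13a1 they were 584 and 386 of 5261 (11.1% and 7.34%). Thinning to 1000 UMIs gave 36 and 26 of 486 (7.41% and 5.35%), and a pseudocount of 50 CPM gave 98 and 69 of 3152 (3.11% and 2.19%). From 10 UMIs they were 460 and 262 of 5472 (8.41% and 4.79%), and with no filter 843 and 553 of 12771 (6.60% and 4.33%). Mature cells alone gave 104 and 67 of 1810 (5.75% and 3.70%), and without the neutrophil-rich one 102 and 55 of 1716 (5.94% and 3.21%). Leaving out the deepest cell and the neutrophil-rich cells gave 123 and 76 of 2642 (4.66% and 2.88%). The last 2 settings were chosen after seeing the data. The number of tested genes changed with each of these alternatives except the pseudocount, and the cause of the changed shares was not tested. The other 13 of 21 alternatives stayed within 1.5 times of both counts. Precursor cells alone were not run, as the non-implanted library had 0, and equal weighting of classes covered mature and unresolved cells. No paired analysis was possible because each group had 1 library. Depth limits genes to sums of few UMIs: 1681 of 3152 tested genes had fewer than 40.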

Other observations

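Dntt, one of the precursor genes, was also found outside the B-lineage cells, with 5 UMIs in 3 implanted and 16 UMIs in 8 non-implanted cells. Of these, 4 and 12 UMIs lay in cells with at least 3 UMIs of Siglech, a receptor of plasmacytoid dendritic cells. Ebf1 had 268 UMIs in 32 implanted and 223 UMIs in 33 non-implanted cells outside the B-lineage cells, with at most 49 and 50 in a cell. Cells that met the Cd79a, Cd79b, C1q, Ccr2 and F13a1 limits but failed the cell filter numbered 1 in each library.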
